A study of Mus musculus with 4 samples.

Results

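M7 is one of 37 neuron populations that the authors defined in the mouse mediobasal hypothalamus by single-nucleus RNA sequencing. Its members were taken from the authors' annotation, as every nucleus whose neuron population was M7. This gave 524 nuclei, 2.25% of 23261 neurons and part of 36523 annotated nuclei. The mice were wild type, had chow freely available and received insulin or saline. There were 2 Insulin and 2 Saline libraries, each sequenced in run 230 or run 232, so each run held 1 library of each treatment. Dose, route, time after treatment, age and the number of mice in a library are not given in the sources used here, so a p-value here reflects only how far the 4 libraries spread. Whether the nuclei of a library came from a single mouse or a pool is likewise not given.

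The mediobasal hypothalamus holds the arcuate nucleus, with its feeding neurons, and the ventromedial nucleus beside it. Most neurons of the ventromedial nucleus release glutamate, which they load into synaptic vesicles with the transporter Slc17a6 (VGLUT2), and they are known for roles in glucose counter-regulation, energy expenditure and defensive and social behaviour. Neurons that release GABA instead carry the synthetic enzymes Gad1 and Gad2 and the vesicular transporter Slc32a1. Insulin acts on neurons through its receptor, Insr, and the kinases and FoxO transcription factors below it.

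M7 held 128 and 113 nuclei in the Insulin libraries of run 230 and run 232, and 108 and 175 nuclei in the Saline libraries of the same runs. Summed counts of unique molecules (UMIs) were 1348883 and 899338 in the Insulin libraries and 1020377 and 1775776 in the Saline libraries. The median M7 nucleus had 8697.5 UMIs, against 8441 in the other neurons. Run and sex coincided. Xist, the RNA of X inactivation in females, was at 0 and 1265 CPM (UMIs per 1000000 UMIs of the same nuclei) in M7 of the Insulin libraries and at 0 and 1279 CPM in the Saline libraries, high in run 232 only, so run and sex cannot be told apart. Barcode sequences shared by 2 libraries numbered 318, and 7 M7 nuclei carried one. Summed markers of oligodendrocytes were at 137 ± 10.9 CPM in M7 and 115 ± 14.8 CPM in the other neurons (SD, n = 4 libraries each), against 12538 ± 260 CPM in oligodendrocytes. The 8 astrocyte markers summed to 74.3 ± 22.3 CPM in M7 and 97.4 ± 23.6 CPM in the other neurons (SD, n = 4). Ependymal and tanycyte markers summed higher in M7, to 77.4 ± 25.4 CPM against 47.5 ± 7.93 CPM in the other neurons and 3968 ± 704 CPM in those cells. Of these markers, M7 was in the top 3 neuron populations for Dnah12. Markers of oligodendrocyte precursors, also higher in M7, are given below. Mean sums for microglia, endothelial and mural cells were lower in M7 than in the other neurons.

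The levels by population that follow describe M7 and carry no test, because the authors' populations were built from the same expression values. Each is the mean CPM ± SD over the 4 libraries, set beside the median of 34 other populations with at least 10 nuclei in every library. The genes named are those with the largest ratio of M7 to that median at 20 CPM or more in M7. Of the 25 genes so chosen, 22 are given here, and M7 ranked first among the 35 populations for 10 of them and had ranks 2 to 5 for the other 12. Their ratios lay between 8.40 and 81.0.

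M7 was glutamatergic by its markers. Slc17a6 (GRCm38 chromosome 7, 51622006 to 51671119, plus strand) was at 160 and 150 CPM in the Insulin libraries and 132 and 177 CPM in the Saline libraries, so the treatments overlapped. Its mean of 155 ± 18.9 CPM compared with a median of 54.4 CPM in the other populations and ranked second, after M28. Gad1 averaged 12.8 ± 9.0 CPM against 60.5 CPM, Gad2 67.9 ± 11.8 CPM against 133 CPM, and Slc32a1 7.99 ± 2.41 CPM against 31.2 CPM. With every nucleus thinned to 3000 UMIs, which left out 5 M7 nuclei, 37.2% of M7 nuclei had a Slc17a6 UMI (95% Wilson interval 33.1 to 41.4%, counting error only). The share was 18.3% in the other neurons and 3.15% in M26, the GABAergic Agrp neurons, where Slc17a6 should be absent. Gad2 was detected in 16.2% of thinned M7 nuclei (13.3 to 19.6%), above the 3.45% of M8, another glutamatergic population, and below the 26.4% of the other neurons. Of the 6 markers listed for the ventromedial nucleus, 4 had a mean of at least 5 CPM over the populations. M7 was in the top 3 populations for 1 of these, Gpr149, an orphan receptor, at 145 ± 19.4 CPM against a median of 16.8 CPM. The transcription factor Sox14, also listed for the arcuate nucleus, was at 17.3 ± 2.52 CPM against 1.07 CPM. Sox14 did not set M7 apart from similar populations, with detection in 5.39% of thinned M7 nuclei, 6.79% of M6, 4.82% of M9 and 4.43% of M8. Adcyap1, which encodes the peptide PACAP, was at 22.6 ± 5.61 CPM against 6.40 CPM and had rank 8.

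3 transcription factors stood out among the genes high in M7. Bcl11b, a zinc-finger factor also called CTIP2 (chromosome 12, 107910403 to 108003602, minus strand), was at 156 and 140 CPM in the Insulin libraries and 168 and 180 CPM in the Saline libraries. These values lay far above the median of the other populations, 5.04 CPM, and only M4 had a higher mean (185 CPM). The forkhead factor Foxp2 (chromosome 6, 14901349 to 15441977, plus strand) was at 404 and 376 CPM in the Insulin libraries and 443 and 420 CPM in the Saline libraries, against a median of 36.7 CPM. M7 had rank 4 for Foxp2, after M24 (1063 CPM), M5 and M17. Tcf7l2, a partner of beta-catenin in Wnt signalling, averaged 110 ± 9.35 CPM against 6.02 CPM and had rank 5. Nkd2, an inhibitor of Wnt signalling, averaged 25.8 ± 7.33 CPM against 2.17 CPM and ranked first. After thinning, 38.3% of M7 nuclei had a Bcl11b UMI, against 3.76% of the other neurons and 0.662% of M26. As a list, hypothalamic transcription factors were not high in M7. Of 50 with a mean of at least 5 CPM over the populations, M7 was in the top 3 for 1 (2%), Bcl11b. It was in the bottom 3 for 3 (6%), Dlx6os1, Foxp1 and Rorb, where all genes had shares of 4.51% and 9.57%. Of the other factors listed, Prdm12, below that mean, was at 11.0 ± 3.25 CPM against 0.53 CPM and ranked second. Six3 was at 56.1 ± 14.1 CPM against 13.0 CPM.

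The adhesion gene Cdh7 was higher in M7 than in any other population by a wide margin. This cadherin (chromosome 1, 109982431 to 110140157, plus strand) was at 460 and 424 CPM in the Insulin libraries and 481 and 459 CPM in the Saline libraries. All 4 values lay above every other population in their library, and the next highest mean was 138 CPM in M23. A Cdh7 UMI was found in 64.7% of thinned M7 nuclei, against 15.4% of the other neurons and 1.49% of M26. Lama1, a laminin subunit of the extracellular matrix, was at 102 ± 9.71 CPM in M7 against 10.8 CPM and was also above every population in all 4 libraries, though M9 came close at 85.6 CPM. The integrin subunit Itga8 was at 39.4 ± 1.46 CPM against 4.66 CPM, and the junctional adhesion gene Jam2 at 48.8 ± 13.6 CPM against 4.27 CPM. Il16, which encodes a precursor of interleukin 16, was likewise above every population in all 4 libraries, at 26.6 ± 10.4 CPM against a median of 2.19 CPM.

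**Figure D1:**
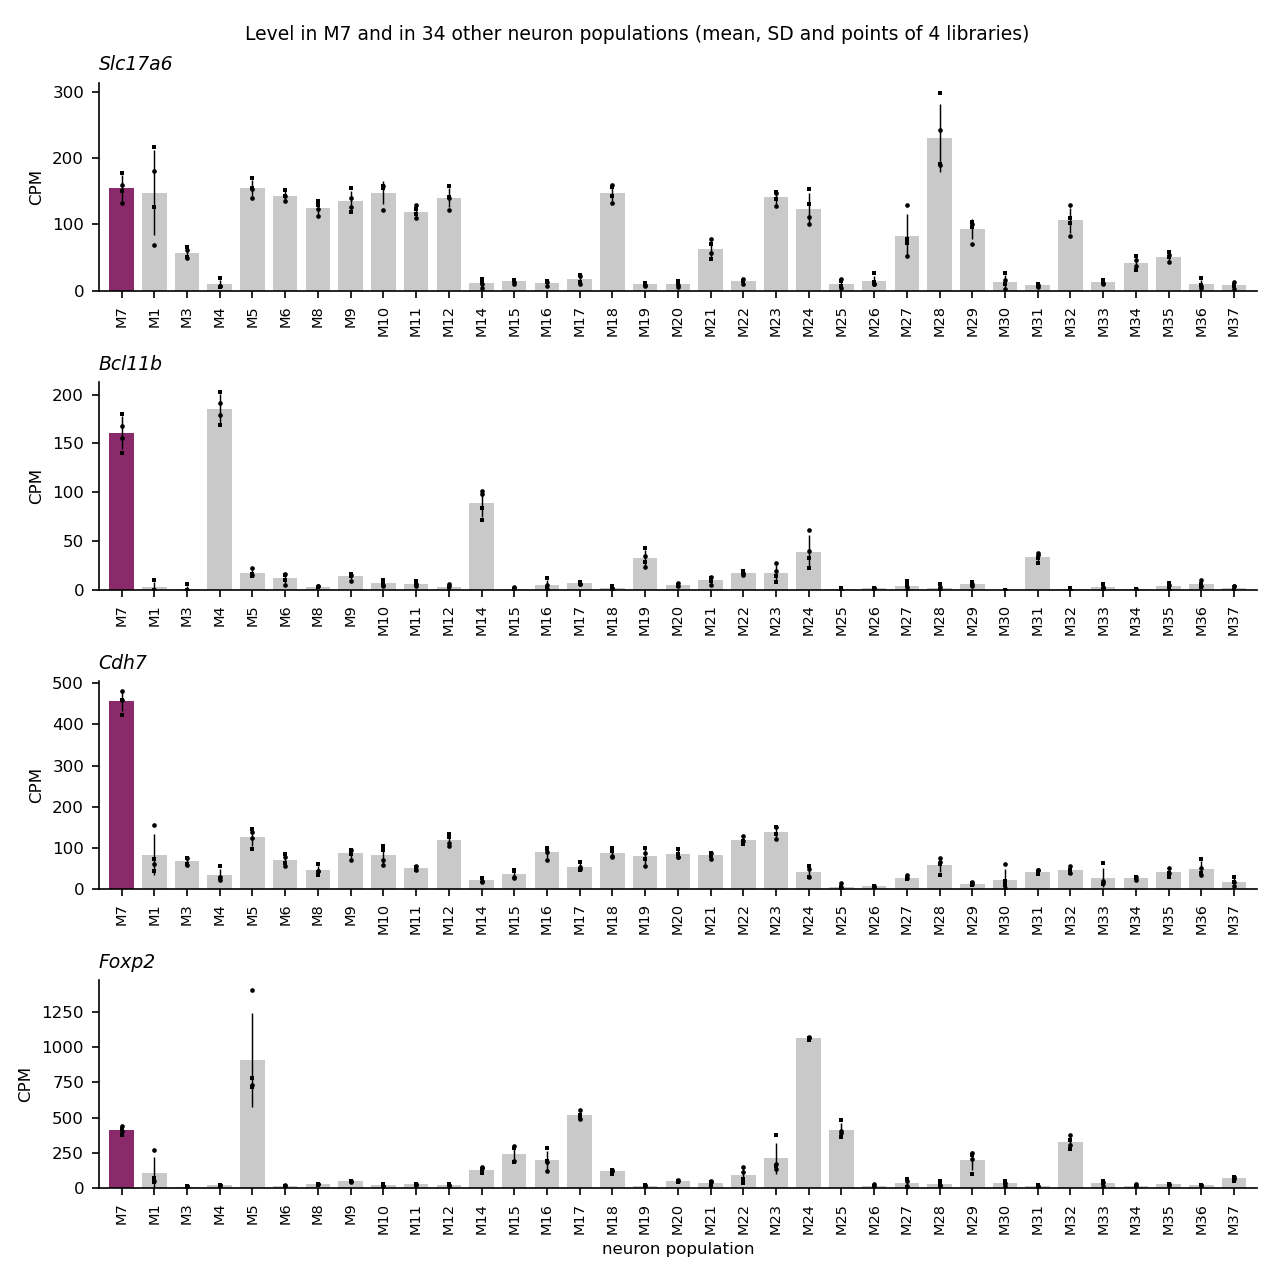
Mean level (bars, CPM) with the SD and the 4 library values (points; circles run 230, squares run 232) of Slc17a6, Bcl11b, Cdh7 and Foxp2 in M7 (purple, left) and 34 other neuron populations. Cdh7 in M7 lies above all others in every library. Bcl11b is highest in M4, then M7, then M14 at 88.5 CPM. Slc17a6 at 155 CPM is one of many similar glutamatergic levels.

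Among secreted and signalling genes, Fgf10, a fibroblast growth factor (chromosome 13, 118669791 to 118792115, plus strand), was at 102 and 82.3 CPM in the Insulin libraries and 92.1 and 74.9 CPM in the Saline libraries. Its mean of 87.9 CPM was the highest of the 35 populations, with M4 next at 77.2 CPM, a gap within the spread between libraries. Fgfr1, a receptor for such factors, was also highest in M7, at 106 ± 8.12 CPM against a median of 45.0 CPM, with M37 level with it at 103 CPM. The phosphodiesterase Pde3a, which degrades cAMP, was at 151 ± 23.4 CPM against 15.8 CPM. Steap3, a metalloreductase of iron uptake, averaged 42.6 ± 6.31 CPM against 2.78 CPM, close to M8 (39.3 CPM). The sulfotransferase Chst8 was at 112 ± 10.5 CPM against 13.4 CPM and the proton-pump subunit Atp6v1c2 at 30.8 ± 6.17 CPM against 3.21 CPM. Atf7ip2 had the largest ratio, 81.0, at a low level of 23.9 ± 10.4 CPM against 0.30 CPM. The remaining genes were Adamts19, Apbb1ip, Hydin, Echdc2, Sptlc3 and Zfp831, at 20.3 to 112 CPM.

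Because a forkhead factor and a partner of beta-catenin were both high in M7, the RefSeq promoter windows (GRCm38.p6, 250 bases before each start) of the named genes were searched on both strands for a forkhead motif, TGTTTAC, and a TCF motif, CTTTGAT. The 25 named genes matched 16 with a window. The forkhead letters were found in 2 of the 16 genes (12.5%), against 3.54% of 27025 genes, and the TCF letters in 0 of 16, against 3.72%. A match is a description of these windows and not a binding site. The windows with the match are Fgf10 (chr13:118714449-118714698, plus strand) and 1 of 4 annotated starts of Steap3 (chr1:120270271-120270520, minus strand), shown because both genes ranked first in M7, with the motif in capitals.
Fgf10: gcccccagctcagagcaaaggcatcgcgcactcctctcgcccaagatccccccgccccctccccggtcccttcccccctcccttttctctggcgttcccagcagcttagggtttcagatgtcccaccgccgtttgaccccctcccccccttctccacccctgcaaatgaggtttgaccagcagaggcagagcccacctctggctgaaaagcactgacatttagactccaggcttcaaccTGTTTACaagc
Steap3: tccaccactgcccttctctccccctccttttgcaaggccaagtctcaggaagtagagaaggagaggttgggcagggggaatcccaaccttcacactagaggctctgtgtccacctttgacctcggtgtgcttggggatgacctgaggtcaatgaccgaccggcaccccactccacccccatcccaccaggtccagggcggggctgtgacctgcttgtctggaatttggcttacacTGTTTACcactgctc

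The 10 genes with the lowest ratio in M7, among genes with a median of at least 50 CPM elsewhere, had ratios of 0.17 to 0.24, and M7 ranked 28 or lower for each. Gpc6, a heparan sulfate proteoglycan of the cell surface, was at 128 and 207 CPM in the Insulin libraries and 133 and 161 CPM in the Saline libraries, against a median of 691 CPM, and had its lowest mean of all in M7. Erbb4, the neuregulin receptor typical of many GABAergic neurons, was at 176 ± 41.0 CPM against 881 CPM. The transcription factor Rorb was at 32.9 ± 3.35 CPM against 140 CPM. Syndig1, a synapse differentiation gene, was at 23.8 ± 10.0 CPM against 132 CPM, and the Notch-related ligand Dlk1 at 23.1 ± 7.20 CPM against 99.3 CPM. Ndst3 and Ndst4, which sulfate heparan chains, were at 13.9 and 9.91 CPM against 60.6 and 59.0 CPM. Stk32a, Rph3a and Gad1 complete the list.

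M7 ranked high for a number of transmitter receptors. Of 12168 genes with a mean of at least 5 CPM, M7 was among the top 3 populations for 549 (4.51%) and among the bottom 3 for 1165 (9.57%). Of 49 such transmitter receptor genes, it was in the top 3 for 11 (22.4%) and in the bottom 3 for 2. The metabotropic glutamate receptor Grm5 (chromosome 7, 87584168 to 88134907, plus strand) was at 3338 and 3207 CPM in the Insulin libraries and 3233 and 3155 CPM in the Saline libraries. All 4 lay above every other population in their library, the next being M9 at 2663 CPM, and the median was 1216 CPM. Grm7, another metabotropic glutamate receptor, averaged 3283 ± 338 CPM against 1542 CPM, level with M4 (3223 CPM). The serotonin receptor Htr2a averaged 58.3 ± 11.4 CPM against 15.3 CPM and ranked first, and Htr1b 32.6 ± 0.93 CPM against 8.16 CPM. Htr2a was not particular to M7. After thinning it was detected in 12.1% of M7 nuclei, 11.1% of M9, 10.6% of M6 and 8.91% of M8, against 5.54% of the other neurons. The muscarinic receptor Chrm1 was at 18.1 ± 6.31 CPM against 2.83 CPM, the nicotinic subunit Chrna7 at 61.3 ± 7.06 CPM against 31.1 CPM, the glycine receptor subunit Glra3 at 285 ± 45.5 CPM against 92.4 CPM, and the cannabinoid receptor Cnr1 at 120 ± 22.8 CPM against 31.3 CPM. Gria2, a subunit of AMPA receptors, and Gabra5, a subunit of GABA receptors, were also among the 11.

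Of 52 ion channel genes, M7 was in the top 3 for 5 (9.62%) and in the bottom 3 for 5 (9.62%). Over all genes these shares were 4.51% and 9.57%. Kcnq3 (chromosome 15, 65986387 to 66286642, minus strand), a subunit of the M-type potassium channel that limits repetitive firing, was at 1912 and 1770 CPM in the Insulin libraries and 2147 and 1828 CPM in the Saline libraries. These values were above every other population in their library, with M6 next at 1537 CPM and a median of 537 CPM. Cacna2d1, an auxiliary calcium channel subunit, averaged 1820 ± 63.4 CPM against 522 CPM and ranked second after M6. Kcnh5 was at 165 ± 21.4 CPM against 72.7 CPM. In the other direction Cacna1a, the pore of P/Q-type calcium channels, was at 559 ± 27.7 CPM against 824 CPM. Kcnh7 and Kcnj3 were the others in the top 3, and Kcnd3, Kcnk2 and Kcnk9 were also in the bottom 3.

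Receptors for hormones and peptides were mostly unremarkable in rank. Insr was at 118 ± 14.7 CPM in M7 against a median of 118 CPM, rank 19 of 35, while the substrate Irs1 was at 24.3 ± 5.71 CPM against 39.8 CPM and ranked 34. Lepr, the leptin receptor, was at 5.50 ± 1.78 CPM against 12.6 CPM, and Esr1, the estrogen receptor, at 29.1 ± 4.22 CPM against 44.9 CPM. Ghr, the growth hormone receptor, averaged 482 ± 102 CPM against 227 CPM. The melanocortin receptor Mc4r had its highest mean of the 35 populations in M7, but on 7 and 6 UMIs in the Insulin libraries and 4 and 13 UMIs in the Saline libraries. That was 5.78 ± 1.52 CPM, against 5.29 ± 1.86 CPM in M12, which overlapped. None of the 24 listed neuropeptide genes with a mean of at least 5 CPM had M7 in its top 3, which is near the 4.51% of all genes for so short a list. Tac1, the substance P precursor, came nearest at rank 6, with 67.1 ± 17.8 CPM against 23.3 CPM.

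The populations most like M7 over 13106 genes were M9 (Spearman correlation 0.975), M8 (0.962) and M14 (0.957), computed on mean log2 CPM across genes, which are not independent. M14 had Slc17a6 at only 11.8 ± 5.91 CPM, with Bcl11b at 88.5 ± 13.9 CPM, rank 3 of the 35 populations, and Foxp2 at 130 ± 17.9 CPM. Bcl11b was thus not particular to M7 among these populations. M9 and M8 shared with M7 the markers Slc17a6 (135 and 125 CPM) and Gpr149 (180 and 314 CPM). The genes that follow are set against M8 and M9 only. Bcl11b was at 161 ± 17.1 CPM in M7, against 3.39 ± 0.49 CPM in M8 and 13.96 ± 3.11 CPM in M9. Foxp2 was at 411 ± 28.2 CPM in M7, against 27.8 ± 2.39 CPM in M8 and 47.4 ± 2.02 CPM in M9. Rgs6, which shortens G protein signalling, was at 338 ± 50.7 CPM in M7, against 52.1 and 48.2 CPM. Vcan, a matrix proteoglycan, was at 68.0 ± 12.9 CPM in M7, against 5.74 and 9.67 CPM. It made up most of the summed oligodendrocyte precursor markers, which were at 72.6 ± 12.04 CPM in M7 and 18.5 ± 4.54 CPM in the other neurons, against 2290 ± 295 CPM in precursor cells. Lower in M7 than in both neighbours were Lemd1 (9.40 CPM against 160 CPM in M8 and 72.8 CPM in M9), the serotonin receptor Htr4 (23.9 CPM against 109 and 118 CPM) and the RNA-editing family member Adarb2 (74.8 CPM against 334 and 475 CPM). Stxbp6, Acvr1c and Tll2 followed the same order.

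M7 was not uniform. The authors' table also gives each neuron a conserved cluster, and 375 M7 nuclei (71.6%) lay in C21 and 95 (18.1%) in C20, with 17 in C23, 16 in C22, 8 in C30 and at most 3 in any other. C21 was almost wholly M7 (95.2% of its 394 nuclei), whereas C20 was 80.9% M6 and 14.4% M7. C20 took 11.7% and 20.4% of M7 in the Insulin libraries and 20.4% and 20% in the Saline libraries, lowest in the Insulin library of run 230. The values below describe these clusters without a test, since the clusters were also built from expression.

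Foxp2 was high in the C21 nuclei of M7 and low in the C20 nuclei. It was at 464 and 474 CPM in C21 of the Insulin libraries and 579 and 563 CPM in C21 of the Saline libraries, against 19.3, 32.7, 11.8 and 3.63 CPM in C20 of the same libraries in that order. Tox, a nuclear factor of the HMG-box family, was at 275 ± 34.7 CPM in C21 and 4.17 ± 6.17 CPM in C20, and Fgf10 at 106 ± 11.9 CPM in C21 and 2.54 ± 3.17 CPM in C20 (SD, n = 4 libraries each). Gpc5, a heparan sulfate proteoglycan, was at 1109 ± 376 CPM in C21 and 90.5 ± 83.1 CPM in C20. Cntnap3, a neurexin-related adhesion gene, had 333 UMIs in C21 and 0 in C20, and Npsr1, the neuropeptide S receptor, 198 and 0. The C20 nuclei had the reverse set. Nfib, a nuclear factor I transcription factor (chromosome 4, 82290173 to 82705750, minus strand), was at 35.5 ± 6.14 CPM in C21 and 445 ± 77.05 CPM in C20. Its relative Nfix was at 1.34 ± 0.43 CPM in C21 and 55.7 ± 14.4 CPM in C20, and Tacr1, the substance P receptor, at 4.38 ± 2.69 CPM in C21 and 124 ± 33.1 CPM in C20. Dach1, Col11a1 and the adrenergic receptor Adra1b were also higher in C20 in all 4 libraries. M6, which makes up most of C20, had Nfib at 355 CPM and Nfix at 63.9 CPM, but Tacr1 at only 5.53 CPM.

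Some other M7 genes were detected in both clusters. Slc17a6 was detected in 37.0% of thinned C21 nuclei and 35.5% of C20 nuclei, and Bcl11b in 42.4% and 30.1%, against 3.67% of M6 for Bcl11b. Cdh7 was detected in 72.4% of C21 nuclei and 47.3% of C20 nuclei, against 17.8% of M6. Of the 22 named M7 genes, 15 were higher in C21 than in C20 in all 4 libraries, 1 (Adamts19) was lower in all 4, and 6 differed in direction between libraries. These genes were chosen by their level in M7, and 71.6% of M7 nuclei lay in C21. The choice itself therefore favours genes high in C21, and the share over all genes was not computed, so the count carries no weight. Gad2 was detected in 12.6% of C21 nuclei (9.61 to 16.4%) and 31.2% of C20 nuclei (22.7 to 41.2%), and in 16.1% of M6. At single nuclei, without thinning, 286 M7 nuclei had UMIs of Foxp2 and none of Nfib, 119 had Nfib and no Foxp2, 41 had both and 78 had neither. In C21 these counts were 269, 32, 30 and 44, at a median of 9205 UMIs. In C20 they were 1, 72, 5 and 17, at a median of 6743 UMIs.

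**Figure D2:**
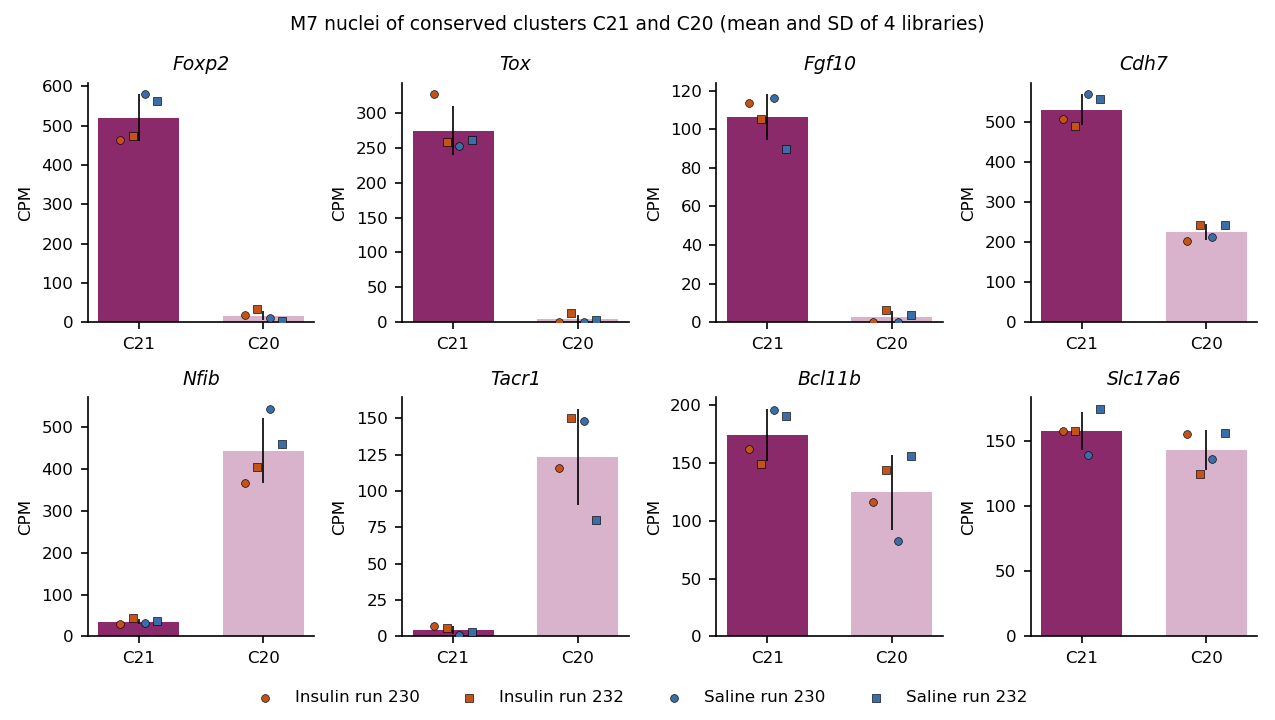
Level (CPM; bars are means and lines SDs of 4 libraries, points are libraries) of 8 genes in the M7 nuclei of conserved cluster C21 (left in each panel) and C20 (right). Foxp2, Tox and Fgf10 are high in C21, Nfib and Tacr1 in C20, and Bcl11b and Slc17a6 in both.

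The share of M7 among neurons was 2.35% and 1.84% in the Insulin libraries and 1.70% and 3.29% in the Saline libraries, so the Saline libraries held both extremes. The means were 2.10 ± 0.36% in Insulin and 2.49 ± 1.12% in Saline (SD, n = 2 each), a difference of -0.39 percentage points with an exact two-sided permutation p = 1, where 2 against 2 libraries cannot go below 0.33. Without the Saline library of run 232 the difference was 0.40 points. M6, M8 and M9 also had their largest shares in that library, at 3.55%, 11.6% and 10.2% of neurons.

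The study's treatment comparison asked how insulin changes gene expression, and in M7 the answer from edgeR was 0 of 10652 genes (0.0%) with an adjusted p under 0.05 by its quasi-likelihood test. At an unadjusted p under 0.05 it found 152 genes (1.43%), and DESeq2 and limma-voom called 0 with 25 and 132 genes at that level. When the run entered edgeR as a replicate block, 4 genes passed (0.0376%), and all were lower with insulin, and 648 genes (6.08%) had an unadjusted p under 0.05. The 4 were transcripts known only by locus or clone names, Gm5441, Gm49171, Gm43915 and 1700126G02Rik, with block log2 fold changes of -0.93, -1.07, -1.44 and -1.10 and adjusted p of 0.0194, 0.0194, 0.0401 and 0.0401 in edgeR. Gm5441 was at 119 and 58.9 CPM in the Insulin libraries and 270 and 82.2 CPM in the Saline libraries, lower with insulin within each run but overlapping across runs. DESeq2 with the same block called 0. The 4 transcripts were also lower with insulin within each run in the other neurons. Their log2 fold changes there, without a block, were -0.52 for Gm5441, -0.46 for Gm49171, -0.64 for Gm43915 and -0.24 for 1700126G02Rik. None passed the test of M7 against the other neurons given below, so these calls do not set M7 apart.

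Among genes with a full symbol, the 12 of smallest p in each direction in M7 all kept the Insulin and Saline libraries apart without overlap. Of all genes, 12.5% did so upward and 14.2% downward. The named genes were chosen by p in these same libraries, so their lack of overlap follows from the choice and is no support. Their adjusted p in edgeR without a block was 1.00, so none passed. Gad1 had 19.3 and 21.1 CPM in the Insulin libraries and 1.96 and 9.01 CPM in the Saline libraries, on 26, 19, 2 and 16 UMIs in that order, a log2 fold change of 1.70 (SE 0.53). It was 3.23 without the Saline library of run 232 and 1.19 without that of run 230. Erbb4 had 193 and 225 CPM in the Insulin libraries and 131 and 156 CPM in the Saline libraries, a log2 of 0.53 (SE 0.18). Single nuclei held 54 of 260 Erbb4 UMIs in the Insulin library of run 230 and 46 of 202 in that of run 232. In the Saline libraries they held 16 of 134 and 35 of 277. Gad1 and Erbb4 are genes typical of GABAergic neurons and are low in M7. Of the 3 listed GABAergic markers, all tested, only 1 (Gad1) kept the treatments apart. Slc32a1 did not, with 5.93 and 10.0 CPM in the Insulin libraries and 5.88 and 10.1 CPM in the Saline libraries. Syndig1, also low in M7, had 33.4 and 31.1 CPM in the Insulin libraries against 12.7 and 18.0 CPM in the Saline libraries. Deptor, an inhibitor within mTOR complexes, had 94.2 and 92.3 CPM in the Insulin libraries and 136 and 142 CPM in the Saline libraries, a log2 of -0.58 (SE 0.19). Snap23, a membrane fusion protein, had 23.0 and 25.6 CPM in the Insulin libraries and 51.9 and 43.9 CPM in the Saline libraries, a log2 of -0.98 (SE 0.28). Further genes with higher values were Adam19, Rwdd2a, Bend7, Dazap2, Tmem267 and Trhde. Those with lower values were Rpf2, Immp2l, Galnt10, Nhsl1, Rfc1, Extl1, Intu, Anxa10, Gsr and Rtl1.

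Whether M7 responded differently from the rest was tested as the insulin effect in M7 minus that in all other neurons, with the library as a block. The edgeR quasi-likelihood test called 7 of 19319 genes (0.0362%), and 733 (3.79%) had an unadjusted p under 0.05. Of the 7, Grm8, Nwd2, Arhgap6, Etl4 and Gcom1 had a higher difference in M7, and Nfib and Pde10a a lower one. Each of the 7 calls was lost when the 1 M7 nucleus with the gene's highest count was left out, with adjusted p of 0.126 to 1.00, and each was lost among C21 nuclei alone, with adjusted p of 0.172 to 1.00. The nucleus left out lay in an Insulin library for the genes with a higher difference and in a Saline library for Nfib and Pde10a. The choice of nucleus therefore favoured a smaller difference.

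Grm8, a metabotropic glutamate receptor that acts mainly at presynaptic terminals (chromosome 6, 27275119 to 28135178, minus strand), was at 173 and 165 CPM in M7 of the Insulin libraries and 108 and 108 CPM in the Saline libraries. Both Insulin libraries lay above both Saline libraries, while in the other neurons 563 and 514 CPM with insulin overlapped 655 and 461 CPM with saline. The difference of effects was 0.66 on the log2 scale (SE 0.14, edgeR adjusted p = 0.0269). Without the nucleus of the highest count, which held 18 Grm8 UMIs, it was 0.60 with an adjusted p of 0.126, and in C21 nuclei 0.48 with an adjusted p of 0.953. Without the Saline library of run 230 it was 0.40. Within C21, Grm8 was at 168 and 189 CPM in the Insulin libraries and 119 and 131 CPM in the Saline libraries, again without overlap. The 18-UMI nucleus, of the Insulin library of run 230, belonged to conserved cluster C19 and also held the most Arhgap6 UMIs. Grm8 averaged 152 ± 32.7 CPM in C21 and 36.01 ± 16.7 CPM in C20, and the part of the C20 share in its difference was not tested.

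Nwd2, a gene with NACHT and WD repeat domains, was at 26.7 and 43.4 CPM in M7 of the Insulin libraries and 12.7 and 13.0 CPM in the Saline libraries, on 36, 39, 13 and 23 UMIs in that order. In the other neurons it was at 63.6 and 45.3 CPM with insulin and 53.9 and 51.8 CPM with saline. The difference of effects was 1.32 (SE 0.30, edgeR adjusted p = 0.0310). It was 1.20 without the nucleus of the highest count and 1.13 in C21 nuclei, with adjusted p of 0.176 and 0.527, and 0.80 without the Insulin library of run 232. Arhgap6, a GTPase-activating protein, was at 129 and 101 CPM in M7 of the Insulin libraries and 71.5 and 77.7 CPM in the Saline libraries, a difference of effects of 0.71 (SE 0.16, edgeR adjusted p = 0.0313). It was 0.55 without 1 nucleus of 29 UMIs, 0.55 in C21 nuclei and 0.45 without the Insulin library of run 230.

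Gcom1 had 27 UMIs in M7 of the Insulin library of run 230, 21 of them in 1 nucleus, and 0 in M7 of the other 3 libraries, so its fitted difference depends on the prior count. Etl4 had 58 of its 200 UMIs in the Insulin library of run 230 in 1 nucleus, without which the difference fell to 0.41, against 0.65 with it. In C21 nuclei the Etl4 difference was 0.10 (SE 0.18), and it was 0.39 without the Insulin library of run 232. Gcom1 was at 0.44 without the Insulin library of run 230. Pde10a, a phosphodiesterase for cAMP and cGMP, was at 404 and 494 CPM in M7 of the Insulin libraries and 698 and 471 CPM in the Saline libraries. A single nucleus of the Saline library of run 230 held 118 of the 712 Pde10a UMIs and 40 of the 173 Nfib UMIs there, and it belonged to conserved cluster C30. In C21 nuclei Pde10a was at 377 and 389 CPM with insulin and 410 and 418 CPM with saline, and Nfib at 29.3 and 43.4 CPM with insulin and 32.3 and 36.9 CPM with saline, so Nfib overlapped. Nfib is the gene that marks C20 nuclei, whose share of M7 was lowest, at 11.7%, in the Insulin library of run 230, where Nfib was also lowest in M7, at 77.1 CPM. The part of that share in the Nfib result was not tested.

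**Figure D3:**
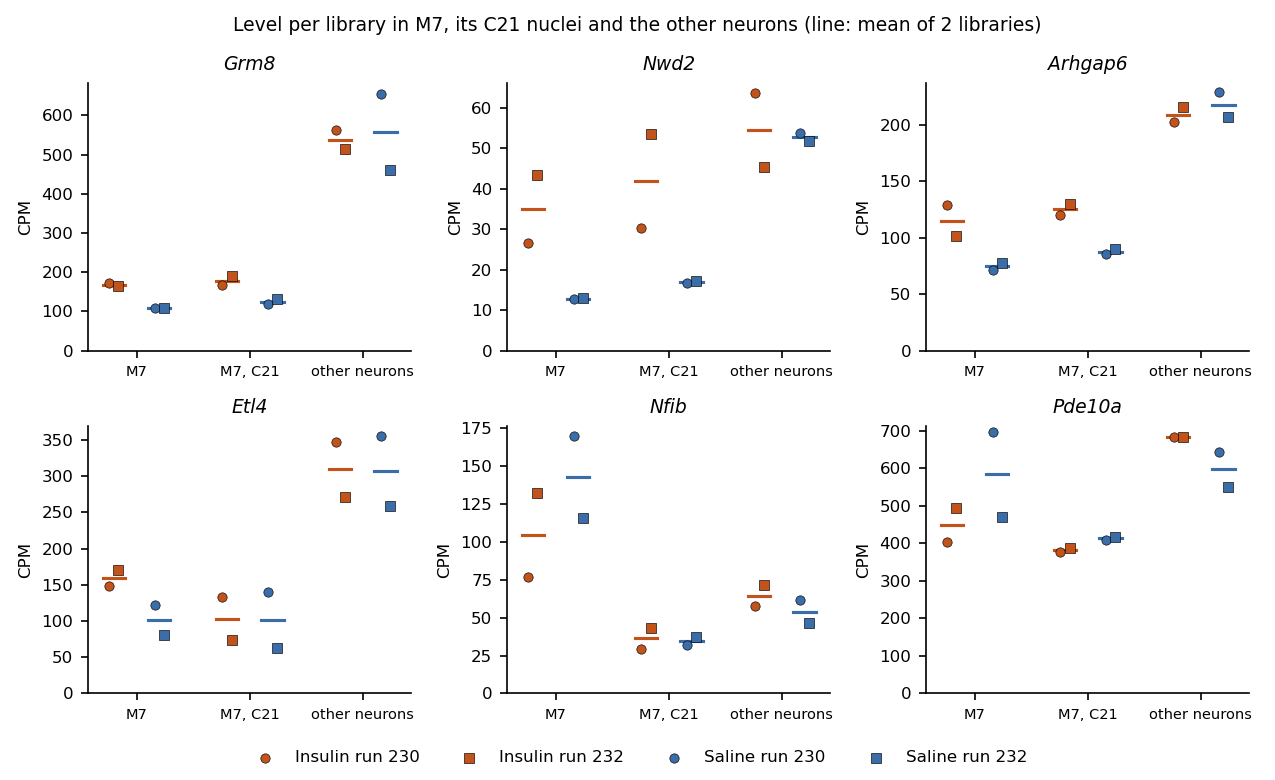
Level per library (CPM; circles run 230, squares run 232, lines the mean of 2 libraries) of 6 genes in M7, in its C21 nuclei and in the other neurons, Insulin left of Saline in each pair. Grm8, Nwd2 and Arhgap6 are higher with insulin in M7 and in C21, while Nfib and Pde10a have their highest M7 value in the Saline library of run 230.

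Immediate early genes, which neurons transcribe within minutes of strong activation, were sparse in M7. Only 9 of the 28 listed had enough counts to be tested, and 0 passed the test. Of the 9, 7 had a higher value with insulin and their median log2 fold change was 0.41, beside -0.0027 over all 10652 genes and 0.48 for the same 9 genes in the other neurons. Junb was at 8.90 and 25.6 CPM in M7 of the Insulin libraries and 8.82 and 6.19 CPM in the Saline libraries, and in the other neurons at 11.1 and 22.4 CPM with insulin and 6.27 and 6.98 CPM with saline. In both, the Insulin library of run 232 was the highest. The early gene Btg2, which restrains proliferation, had 8.90 and 22.2 CPM in M7 with insulin and 6.86 and 8.45 CPM with saline. Fos had 2 and 10 UMIs in M7 of the Insulin libraries and 3 and 1 UMIs in the Saline libraries, so no difference was detectable at this depth. Egr1, another such factor, was at 2.97 and 8.90 CPM in M7 with insulin and 1.96 and 3.38 CPM with saline, and Fosb had 0 UMIs, which allows a level of up to 0.595 CPM over the 4 libraries together (3 counts of 5044374 UMIs). Gem, a small GTPase that restrains calcium channels, ran the other way, at 6.67 and 4.45 CPM in M7 with insulin and 8.82 and 9.01 CPM with saline, while the other neurons had 18.8 and 26.4 CPM with insulin and 10.1 and 11.3 CPM with saline. Its difference of effects was -1.62 (SE 0.51) and did not pass (edgeR adjusted p = 0.711), on 9, 4, 9 and 16 UMIs in M7. The summed level of all listed early genes was 248 and 332 CPM in M7 of the Insulin libraries and 226 and 232 CPM in the Saline libraries. The median log2 of the tested early genes was 0.19 once the Insulin library of run 232 was left out, 0.23 without Saline run 230, 0.68 without Insulin run 230 and 0.81 without Saline run 232. Junb was at 0.29 without Insulin run 232. In that library M7 nuclei had the lowest median, 6870 UMIs against 8316 to 9943 in the others. Mitochondrial UMIs were 0.0084% and 0.0098% of M7 UMIs in the Insulin libraries and 0.0063% and 0.0046% in the Saline libraries, and the part of depth and of these shares in the early-gene values was not tested.

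**Figure D4:**
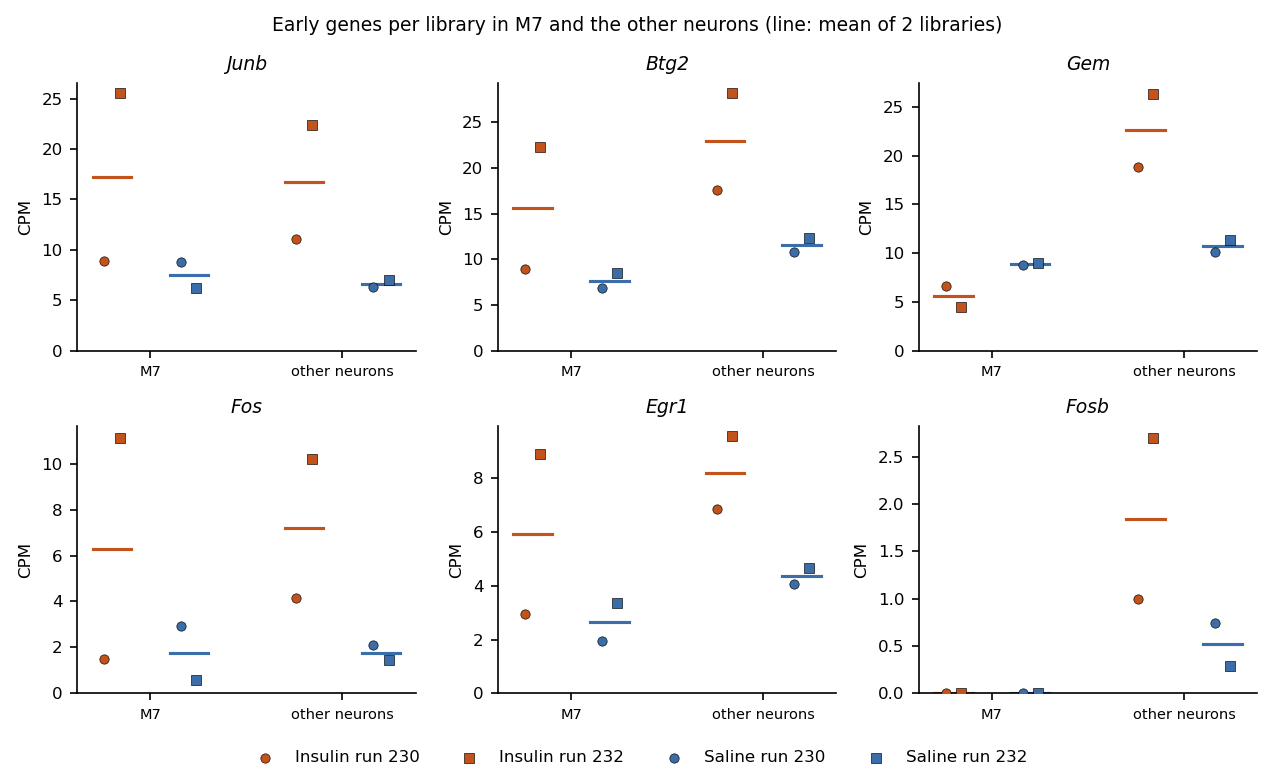
Level per library (CPM; circles run 230, squares run 232, lines the mean of 2 libraries) of 6 early genes in M7 and in the other neurons, Insulin left of Saline. Junb, Btg2 and Fos are highest in the Insulin library of run 232 in both, and Gem has higher values with insulin in the other neurons and lower ones in M7, a difference that did not pass its test.

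Of 32 genes of insulin signalling, 27 were tested in M7 and 0 passed. Their median log2 fold change was -0.11, and 11 of 27 were higher with insulin. In 1 gene (Akt2) both Insulin libraries lay above both Saline libraries and in 8 (29.6%) below, among them Pdpk1, Tsc2, Rptor, Foxo1 and Foxo3, beside 14.2% downward over all genes. Foxo1, a transcription factor that insulin excludes from the nucleus, was at 10.4 and 15.6 CPM in the Insulin libraries and 20.6 and 25.3 CPM in the Saline libraries, a log2 of -0.87 (SE 0.40, edgeR adjusted p = 1.00). In the other neurons it was at 19.2 and 22.7 CPM with insulin and 20.97 and 18.6 CPM with saline. Insr overlapped, at 117 and 135 CPM in M7 with insulin and 123 and 99.1 CPM with saline. No gene passed among 5 tested FoxO targets (median -0.04), 16 SREBP targets (-0.02), 8 glucocorticoid-responsive genes (0.13) or 19 genes of glycolysis and glucose transport (0.08). Of the 8 glucocorticoid-responsive genes, 4 had a higher value with insulin, and 3 (Fkbp5, Errfi1 and Klf9) had both Insulin libraries above both Saline libraries, beside 12.5% of all genes. Errfi1 was at 21.5 and 38.9 CPM in the Insulin libraries and 12.7 and 16.3 CPM in the Saline libraries.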

How the data were processed

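Nuclei were sorted and their RNA sequenced with 10x 3' chemistry, per the labels' protocols. The authors deposited raw UMI counts per gene and nucleus, and the submitters' processing notes name Cell Ranger and GRCm38. They also deposited a table of library, run, treatment, cell type, neuron population and conserved cluster. The Cell Ranger version, whether intronic reads were counted, and how clusters were made are not given in the sources used here. Of 36534 annotated barcodes 11 had no match in the matrix and 36523 were analysed. The 4633 unannotated barcodes were left out, and doublets were treated as the authors annotated them. Library names in that table match no replicate number of the labels, so libraries are named by treatment and run. Genes in the authors' names of some populations, and some other genes, are not reported here.

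Counts were summed over M7 nuclei per library. edgeR 4.0.16 in R 4.3.3 (TMM, filterByExpr with minimum count 10 and minimum total 15, quasi-likelihood test, Benjamini-Hochberg, threshold 0.05) compared Insulin with Saline without a block. The difference of effects used M7 and the other neurons of each library, with library as block. DESeq2 1.42.0 and limma-voom (limma 3.58.1) were alternatives. Same-run libraries are paired by the deposited run column, and their deviations from the group means correlated at 0.415 over 10652 genes, so the run served as replicate block in a further fit. CPM is UMIs per 1000000 UMIs of the same nuclei. Scripts were tested on simulated data. The members, gene lists and rules for named genes (the 25 highest and 10 lowest ratios, the 12 smallest p in each direction, 5 in each direction and all calls for the difference of effects, and listed genes) were chosen with earlier results of these data known. Genes of C21 and C20 and those set against M8 and M9 were ranked by ratio after values were seen. Wilson intervals cover counting error only. Promoter windows are RefSeq's and gene coordinates are from GENCODE M21 (GRCm38).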

Additional observations from a re-analysis of the deposited data

Results flagged for a closer look

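The insulin effect in M7 differed from that in the other neurons, by edgeR's interaction test, for 7 genes. The log2 differences were 0.66 for Grm8, 1.32 for Nwd2, 0.71 for Arhgap6, 0.65 for Etl4 and 11.3 for Gcom1, a fitted value that rests on 27 UMIs of 1 library. They were -0.71 for Nfib and -0.54 for Pde10a. Each call was lost without the nucleus of the gene's highest count, where the differences were 0.60, 1.20, 0.55, 0.41, 9.26, -0.55 and -0.43 in the same order. The choice of that nucleus favoured a smaller difference for every gene. All 7 kept their direction there, which is no support for the calls. Gcom1 could not have turned, since M7 of the other libraries had 0 of its UMIs.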

How the results depend on the processing

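Values depended on which libraries and nuclei entered. In M7 the count of genes called between Insulin and Saline was 0 in the fit without a block and 0 with RLE normalization, DESeq2, limma-voom, nuclei of at least 2000 UMIs, C21 nuclei or no shared barcodes. It was 1 (Gcom1) without a filter on low counts, 4 with the run as replicate block in edgeR and 0 with that block in DESeq2, and 5 to 41 when 1 library was left out: 5 without Insulin run 230, 13 without Insulin run 232, 14 without Saline run 230 and 41 without Saline run 232, where the lone library is assumed to vary like the others. Sex-linked genes were 3, 3, 6 and 1 of these calls. For the difference of effects, 7 calls remained the same 7 genes with RLE normalization and with no filter. The count was 4 with the equal-weight mean of the other populations (3 of the 7), 4 without shared barcodes (4 of the 7), 0 in C21 nuclei, and 1 to 13 with a library left out. Of the 7, 2 were called without Insulin run 230, 4 without Insulin run 232, 0 without Saline run 230 and 3 without Saline run 232. The difference in M7 share was -0.21 points over all annotated nuclei and -1.19 to 0.40 points with a library left out. Gm5441 turned to 0.20 without Saline run 230, and Insr to -0.027 without Saline run 232. Of the 25 genes highest in M7, 22 were chosen again after thinning, 17 against the sum of all other neurons, and 23 to 25 with a library left out. C21-only, shared-barcode and highest-nucleus settings were added after seeing the data; the cause of these changes was not tested beyond them. With 2 libraries a treatment, genes of few UMIs in M7 allow no firm comparison.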
